A study of Mus musculus with 6 samples.

Results

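The UDP-glucuronosyltransferases (UGT), cytosolic sulfotransferases (SULT) and glutathione S-transferases (GST) are the conjugating enzymes that prepare drugs, hormones, bile acids and bilirubin for excretion. They were taken by gene symbol from the deposited count table of sorted mouse hepatocytes: the Ugt1, Ugt2 and Ugt3 genes of subfamilies a and b, the Sult1 to Sult6 genes, and the Gst genes of the alpha, kappa, mu, omega, pi, theta and zeta classes. The rule uses gene names alone. With 3 pseudogenes left out, 64 of the 49315 genes in the table were members, of which 21 were UGT, 21 SULT and 22 GST genes, and all 64 are protein-coding in GENCODE M21.

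UGT enzymes sit in the endoplasmic reticulum, and most of them join glucuronic acid from UDP-glucuronic acid to their substrates. SULT enzymes are cytosolic and transfer sulfate from the donor PAPS, and most GST enzymes add glutathione to electrophiles or use it to reduce peroxides. In the liver many of these genes are under control of the nuclear receptors Nr1i2 and Nr1i3, of Hnf4a, and, for several GST genes, of the oxidant-responsive factor Nfe2l2.

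The libraries were made from hepatocytes of male C57BL/6J mice (3 by the design text) given a hydrodynamic injection at 8 weeks of age. The injection held 20 µg of the plasmid pT3-TTR-miR-206-IRES-GFP, in which the Ttr promoter of hepatocytes drives both miR-206 and GFP, and 0.8 µg of the plasmid pCMV/Sleeping Beauty for the transposase. Sorting 4 weeks later gave GFP-positive hepatocytes (miR-206, labelled as miR-206 overexpression, 3 libraries) and GFP-negative hepatocytes (control, labelled Wild-type, 3 libraries). The labels give the control treatment as Empty vector, but by the design text GFP-positive and GFP-negative cells shared the same injected mice, a difference that the files leave unsettled; miR-206, GFP, plasmid uptake and the sort gate cannot be told apart. An mRNA kit was used, so the mature microRNA was not measured. Since nothing ties the libraries to separate mice, p-values measure only the spread between these libraries.

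The miR-206 libraries held 4157947 to 5724329 counts and the controls 8966590 to 15244017. Mitochondrially encoded genes took 11.2% to 63.8% of the counts in miR-206 libraries and 9.16% to 36.0% in controls. Olfactory and vomeronasal receptor genes, which hepatocytes are not known to express, gave 3.69 to 5.45 counts per exonic kb in miR-206 libraries and 1.26 to 3.05 in controls, and serve below as each library's background. Control 1 stood apart from the other controls (r of log2 CPM 0.857 and 0.859, against 0.970 between those). The 25 hepatocyte identity genes were all detected in both groups and summed to 25390 to 120200 CPM (counts scaled to a library's total) in miR-206 libraries and 71150 to 137200 CPM in controls. Summed Kupffer cell markers were at 92.5 to 135 CPM in miR-206 libraries and 527 to 1244 CPM in controls. All 12 of these markers fell with the counts as deposited, beside 29.6% of all tested genes. After the background correction described below 8 of 12 fell and none rose, beside 15.7% and 19.2% of the genes in that fit. All but Lyz2 lay under 10 times the background in miR-206 libraries, so the corrected falls of the others are given as values only. Cholangiocyte markers were at 63.4 to 226 against 569 to 2719 CPM, most of it in controls from Spp1 (490 to 2350 CPM). Of the 8 cholangiocyte markers 6 fell with the counts as deposited, and none of 4 passed after the background correction described below. Sinusoidal endothelial markers were at 125 to 237 against 317 to 435 CPM. All 10 of them fell with the counts as deposited, where 29.6% of all tested genes fell and 25.8% rose. After correction 3 of 8 rose and 1 fell, beside 19.2% and 15.7% of the genes in that fit. Lymphocyte and plasma cell markers summed to 52.2 to 90.7 CPM in miR-206 libraries and 461 to 531 CPM in controls, but of the 9 tested 5 fell, among them Igkc and Igha, and 2 rose by edgeR's test. These were Cd3e (18.6 ± 5.12 CPM in miR-206 libraries against 3.88 ± 0.517 CPM in controls, SD, n = 3 each, adjusted p = 0.00995 by edgeR) and Ms4a1 (9.31 to 31.3 against 0.918 to 7.36 CPM, adjusted p = 0.0381). Both lay near the background. Cd3e was at 4.67 times it in miR-206 libraries and 6.19 times in controls, and Ms4a1 at 3.16 and 2.96 times. Neither was in the background-corrected fit described below. Stellate cell and red cell sums overlapped. None of the markers of these lists was at 0 in a whole group. The Kupffer cell, cholangiocyte, endothelial, and lymphocyte and plasma cell sums were lower in every miR-206 library, as were the GST and SULT sums given below. The part of these cell types in the GST and SULT differences was not tested. Fewer cells of a type and less RNA per cell cannot be told apart in these bulk libraries.

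The microRNA that the vector carries, mmu-miR-206-3p (RefSeq, GRCm38.p6, chr1:20679055-20679076, plus strand), is shown with its seed, bases 2 to 8, in capitals, above the single match to that seed found in a member's 3' UTR, with the matched bases in capitals.
mmu-miR-206-3p: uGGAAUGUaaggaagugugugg
Sult1b1 3' UTR: aaacatactacACATTCCccagcaggtaa
The search took ACATTCC, alone or followed by A, on the sense strand of the longest 3' UTR of each gene in GENCODE M21. Of the 63 members with an annotated 3' UTR, Sult1b1 alone (1.59%) held a match, which starts at base 112 of its UTR, whereas 1971 of 16871 tested genes (11.7%) held one. The members have short 3' UTRs, with a median of 547 bases against 1272 for the tested genes. The absence of these letters from a UTR says nothing of other kinds of site.

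The comparison of miR-206 with control hepatocytes asks which conjugating enzymes differ between GFP-positive and GFP-negative cells. The balance of the families differed: the miR-206 libraries held mostly UGT counts and 2 of the 3 controls mostly GST counts. UGT genes took 87.8%, 70.0% and 78.7% of the member counts in miR-206 libraries 1 to 3, against 52.9%, 30.7% and 30.0% in controls 1 to 3. GST genes took 9.74%, 25.0% and 17.8% in miR-206 libraries, against 42.3%, 63.2% and 64.7% in controls. SULT genes were the smallest family throughout, at 2.46%, 4.96% and 3.51% in miR-206 libraries and 4.83%, 6.09% and 5.35% in controls. The UGT shares of every miR-206 library lay above those of every control and the GST shares below, while the SULT shares overlapped.

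The ratio of UGT to GST counts does not move with the scaling between libraries. It was 9.01, 2.80 and 4.43 in miR-206 libraries and 1.25, 0.486 and 0.463 in controls, with no overlap. Without Gstp1, the GST gene with the most counts, it was 10.7, 3.50 and 5.43 in miR-206 libraries and 2.03, 1.12 and 1.06 in controls. With each library's background subtracted it was 9.65, 2.88 and 4.61 in miR-206 libraries and 1.25, 0.485 and 0.463 in controls. The highest of the controls was control 1, the library that stood apart, and all 3 miR-206 libraries lay above it in each of these forms.

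**Figure D1:**
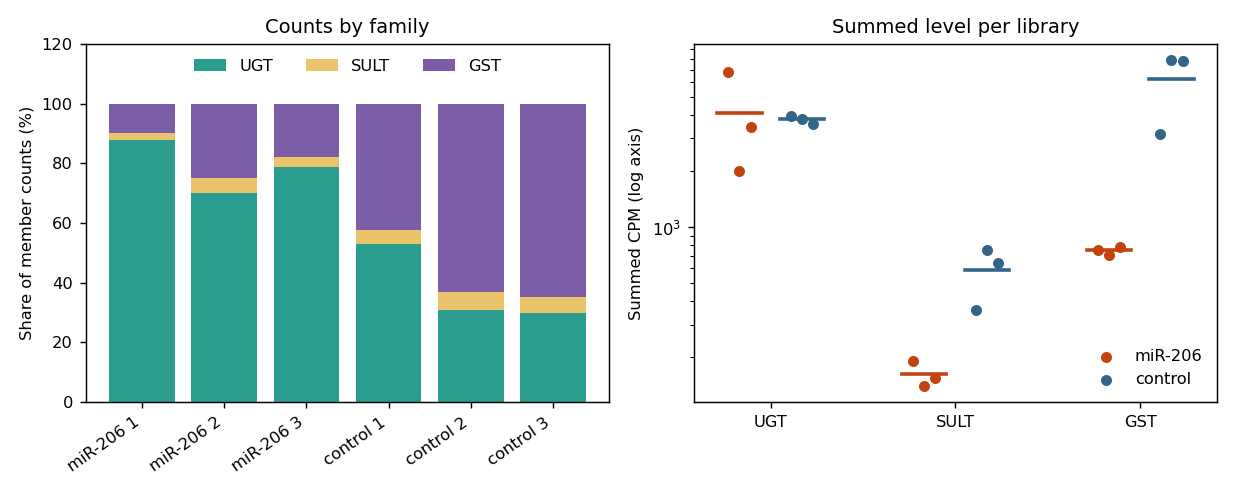
Left, the percentage of member counts held by UGT, SULT and GST genes in each library. Right, the summed CPM of each family on a log axis, with a point for each library and a line for the group mean: GST sums were 711 to 782 CPM in miR-206 libraries and 3143 to 7859 CPM in controls, while the UGT sums of the groups overlapped.

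In CPM, the GST and SULT sums of the groups lay apart and the UGT sums did not. GST genes summed to 757, 711 and 782 CPM in miR-206 libraries, against 3143, 7859 and 7769 CPM in controls. SULT genes summed to 191, 141 and 154 CPM in miR-206 libraries, against 359, 757 and 642 CPM in controls. UGT genes summed to 6817, 1991 and 3464 CPM in miR-206 libraries, against 3932, 3816 and 3597 CPM in controls, so that the miR-206 libraries spread on both sides of the controls. As CPM of nuclear counts only, which leaves the mitochondrial share aside, the UGT sums were 7681, 5507 and 6747 in miR-206 libraries and 6141, 4201 and 4013 in controls and still overlapped, whereas GST sums (852, 1966 and 1523 against 4908, 8651 and 8668) and SULT sums (215, 390 and 300 against 561, 833 and 716) did not.

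Gene by gene, 50 of the 64 members had enough counts to be tested, and with the counts as deposited 24 fell and 3 rose (edgeR quasi-likelihood test, adjusted p under 0.05). Over all 24382 genes tested, 29.6% fell and 25.8% rose, or 55.4% in either direction. The number of members that rose was 8 without control 1, 1 without control 2, control 3 or miR-206 library 3, and 0 without miR-206 library 1. Over all genes 10674 of 25524 rose without control 1 and 2109 of 26347 without miR-206 library 1. By family, 17 of the 20 tested GST genes fell and 1 rose, 5 of 14 SULT genes fell and none rose, and 2 of 16 UGT genes fell and 2 rose. Median log2 fold changes were -3.03 for GST, -0.04 for SULT and -0.71 for UGT genes, against 0.45 for all tested genes. In CPM, 15 of the 20 tested GST genes (75.0%) had all 3 miR-206 libraries below all 3 controls, as had 4 of 14 SULT genes (28.6%) and 1 of 16 UGT genes (6.25%), against 16.8% of all tested genes.

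The direction of the UGT genes turned with the scale. A background-corrected fit subtracted the receptor-based background, kept the 4224 nuclear protein-coding genes averaging at least 10 times it, and repeated the normalisation; 38 members passed that filter. Of these 14 (9 GST, 2 SULT and 3 UGT genes) lay under 10 times the background in the miR-206 libraries and passed through their control levels alone, so a corrected fall among them is given as a value and not as further evidence of a fall. In it 13 of 15 UGT genes rose and none fell, with a median of 2.08. The GST median was -0.26, with 2 of 19 genes up and 3 down past the test. The SULT median was -0.93, with 2 of 4 genes down, Sult1a1 and Sult1d1. Of these falls, those of Gstp2, Gsto1 and Sult1d1 are of genes that passed the filter through their controls alone. Without miR-206 library 1 the SULT median was -0.37 and without library 3 it was -0.14. The number of members that fell was 2 without control 3 and 3 without miR-206 library 3, where 163 of 3311 and 421 of 5022 genes fell. Over the 4224 genes 19.2% rose and 15.7% fell, with a median of -0.14. Scaling the uncorrected libraries on hepatocyte identity genes gave medians of 1.99 for UGT and -0.23 for GST genes, on a scale where the median of all genes was 2.92, and 23 members rose and 5 fell, beside 66.7% and 1.54% of all genes. The corrected fit on that scale gave 14 rises and 5 falls among members, beside 11.3% and 10.1% of its genes. The UGT median minus the GST median, which cancels the scale, was 2.32 with the counts as deposited, 2.33 after correction, and 2.10 to 2.59 over all 24 alternative settings run. Settings that change only the scale can hardly move this difference, so its narrow range is no check on the scaling. The corrected medians include the members that passed the filter through their controls alone.

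**Figure D2:**
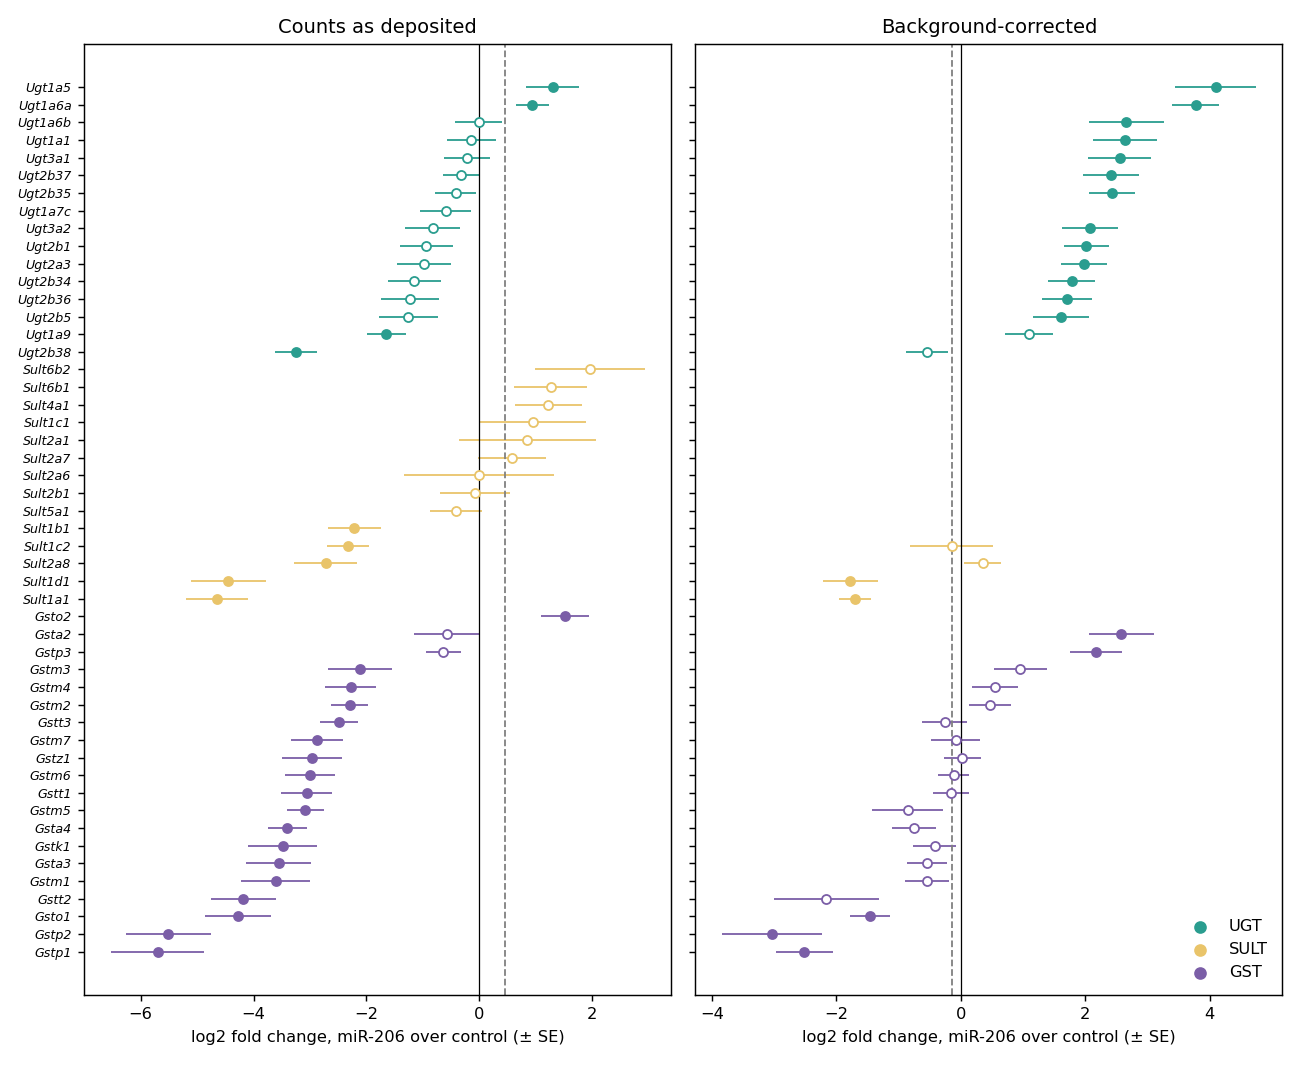
Log2 fold change of miR-206 over control with its SE for each tested member, with the counts as deposited on the left and after background correction on the right. Filled points passed an adjusted p under 0.05, and the dashed line is the median of all genes in that fit (0.45 and -0.14): UGT genes other than Ugt2b38 lie to the right of most GST genes in both panels.

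The GST genes, the family with the most falls, are described first. Gstp1, a pi-class enzyme that is abundant in the livers of male mice (chr19:4035407-4037985 in GENCODE M21), was at 117, 142 and 144 CPM in miR-206 libraries and at 1204, 4445 and 4366 CPM in controls. Every miR-206 library was far below every control, and control 1 was the lowest of the controls. Gstp1 fell, by edgeR's test, with -5.70 on the log2 scale (SE 0.83, adjusted p = 0.000521), and with -2.51 (SE 0.46, adjusted p = 0.00820) after correction. Its neighbour Gstp2, a pi-class gene of close sequence whose reads may be shared with it, was counted at 4, 13 and 19 in miR-206 libraries and at 187, 949 and 1045 in controls. In the miR-206 libraries Gstp2 lay at 2.23 times the background on average and in 1 of them below it, so its fold change of -5.51 (adjusted p = 0.000406) rests on few counts, and its corrected value of -3.03 is that of a gene that passed the filter through the controls alone.

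Gstm1, a mu-class enzyme (chr3:108012255-108017973), was at 192, 220 and 231 CPM in miR-206 libraries and at 832, 1492 and 1496 CPM in controls. It fell with the counts as deposited (-3.60, SE 0.61, adjusted p = 0.00106) and had -0.54 (SE 0.35, adjusted p = 0.257) after correction. Gsta3, the alpha-class enzyme that detoxifies aflatoxin epoxide in mice, was at 93.3, 95.0 and 103 CPM in miR-206 libraries and at 354, 650 and 649 CPM in controls (-3.55, SE 0.58, adjusted p = 0.000833). In both genes the 3 miR-206 libraries were close together and below all controls.

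These genes did not keep the same proportions to each other. For each Gstm1 count there were 0.608, 0.645 and 0.625 Gstp1 counts in miR-206 libraries, against 1.45, 2.98 and 2.92 in controls. Gsta3 to Gstm1, by contrast, was 0.485, 0.431 and 0.446 in miR-206 libraries and 0.426, 0.436 and 0.434 in controls, a pair of ranges that overlap. Such ratios within a library are free of the scale between libraries, and the pairs were chosen after their values were seen. As a share of all GST counts, Gstp1 took 15.5%, 20.0% and 18.4% in miR-206 libraries and 38.3%, 56.6% and 56.2% in controls, the largest shift in the family in percentage points. Gstm1 took 25.4%, 31.0% and 29.5% of the GST counts in miR-206 libraries, where it was the leading GST gene, and 26.5%, 19.0% and 19.3% in controls.

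Gstz1, the zeta-class enzyme that also serves as maleylacetoacetate isomerase in tyrosine breakdown, took 12.8%, 12.9% and 12.4% of GST counts in miR-206 libraries and 7.83%, 5.37% and 5.21% in controls. Its level of 96.7, 91.7 and 97.3 CPM in miR-206 libraries, against 246, 422 and 405 CPM in controls, fell with the counts as deposited (-2.96, SE 0.53, adjusted p = 0.00139), and its value after correction was 0.024 (adjusted p = 0.953). It shares 12.2% of its exonic bases with genes on the other strand, and the strand setting of the counting is not given in the sources used here. The theta-class gene Gstt1 (-3.06, SE 0.44) and the kappa-class gene Gstk1 of mitochondria and peroxisomes (-3.48, SE 0.61) fell likewise. Their corrected values were -0.16 (adjusted p = 0.685) and -0.42 (adjusted p = 0.368).

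Gsto1, an omega-class enzyme that reduces dehydroascorbate, was at 11.3, 8.71 and 7.51 CPM in miR-206 libraries and at 37.6, 100 and 108 CPM in controls. It fell with the counts as deposited (-4.28, SE 0.58, adjusted p = 0.000398). It lay at 4.53 times the background in miR-206 libraries, and its corrected value was -1.46 (SE 0.32). Gstt2 (-4.18), Gsta4 (-3.40), an alpha-class enzyme for lipid peroxidation products, and the mu-class gene Gstm6 (18.5, 13.2 and 19.9 CPM in miR-206 libraries, against 45.8, 73.1 and 76.6 CPM in controls) completed the named falls with the counts as deposited and did not pass after correction (adjusted p = 0.0778, 0.128 and 0.738). Gstt2 lay at 1.84 times the background in miR-206 libraries. All 7 mu-class genes fell with the counts as deposited, and none of them passed after correction, where their median was -0.08. Of the 17 falls with the counts as deposited, 17 held with each library left out in turn, and 3, those of Gstp1, Gstp2 and Gsto1, held with hepatocyte identity scaling. The corrected fall of Gstp1, which lay at 89.5 times the background in miR-206 libraries, held with each library left out.

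The exceptions in the family, Gstp3, Gsta2 and Gsto2, were picked out after their values were seen. Gstp3, the third pi-class gene of the cluster, was at 14.2, 12.2 and 13.1 CPM in miR-206 libraries and at 11.6, 8.40 and 10.5 CPM in controls, so that every miR-206 library was above every control. Its log2 fold change was -0.63 (adjusted p = 0.0957) with the counts as deposited, and it rose after correction (2.17, SE 0.42, adjusted p = 0.00917), but did not pass with that fit scaled by library size alone (1.47, adjusted p = 0.0608). For each Gstp3 count there were 8.24, 11.7 and 11.0 Gstp1 counts in miR-206 libraries, against 104, 529 and 418 in controls. Gsta2, an alpha-class enzyme inducible through Nfe2l2, was at 19.0, 9.92 and 12.8 CPM in miR-206 libraries and at 2.23, 12.3 and 12.7 CPM in controls, an overlap, and rose after correction (2.58, SE 0.52, adjusted p = 0.0108). Gsto2 rose with the counts as deposited (1.52, adjusted p = 0.0131), but lay at 3.55 times the background in miR-206 libraries and 3.86 times in controls, and its call was lost in at least 1 fit with a library left out.

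Promoter windows from RefSeq (GRCm38.p6) were searched on both strands for TGACNNNGC, the core of the antioxidant response element bound by Nfe2l2. Of the 56 members with a window, 3 (5.36%) held it, against 3781 of 27025 genes (14.0%). All 3 are GST genes (3 of 20, 15.0%), and none of the 19 UGT or 17 SULT windows held it. The matches, with the core in capitals, all lie on the strand of the gene.
Gsta3 promoter, chr1:21240454-21240482, plus strand: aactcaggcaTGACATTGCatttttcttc
Gstm5 promoter, chr3:107895802-107895830, plus strand: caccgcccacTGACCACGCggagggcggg
Gstm7 promoter, chr3:107931725-107931753, minus strand: tctgaagaccTGACAAAGCgaagccaatc
The core starts 121 bases before the start that RefSeq gives for Gsta3, 42 before that of Gstm5 and 129 before that of Gstm7, where the GENCODE M21 gene begins further upstream and holds the match. These 3 genes had log2 fold changes of -3.55, -3.09 and -2.87 with the counts as deposited, beside the family median of -3.03, and -0.54, -0.85 and -0.08 after correction, where none of them passed. A match is a run of letters and not a measured site. The windows cover only bases near the start of each gene, and elements further upstream were not searched.

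**Figure D3:**
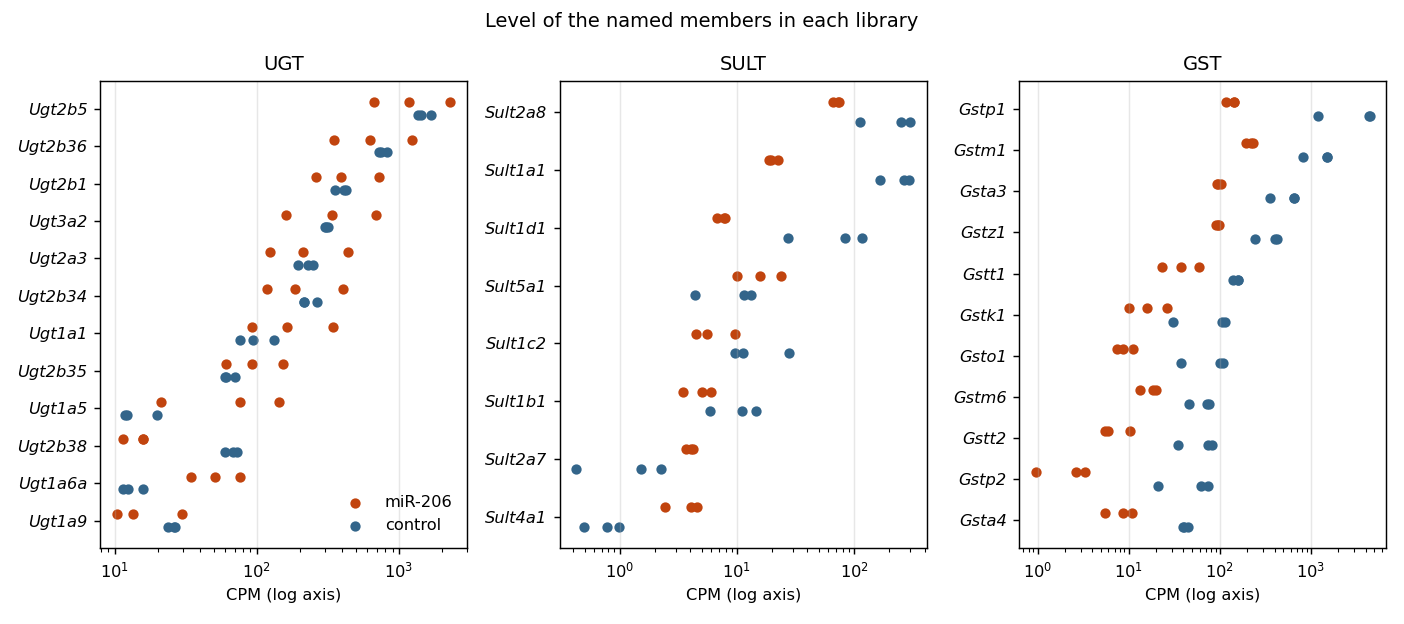
CPM in each library on a log axis for the named members of each family, with the miR-206 libraries above the controls for each gene. The miR-206 points of all 11 GST genes shown lie to the left of the control points, while those of 9 of the 12 UGT genes overlap with them. Gstp2, Gstt2 and Gsta4 are shown because of their falls. Of all 20 tested GST genes 15 lay to the left, beside 16.8% of all tested genes. Of 16 tested UGT genes 1 lay to the left and 2 to the right, beside 16.8% and 52.6%.

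Among the SULT genes, 13 of 21 lay below 5 times the background in both groups, and the family's counts came mainly from Sult2a8 and Sult1a1. Sult2a8, a bile acid sulfotransferase of mouse liver (chr7:14410686-14446769), was at 75.0, 65.8 and 73.0 CPM in miR-206 libraries and at 112, 301 and 253 CPM in controls. Sult1a1, the phenol sulfotransferase (chr7:126672865-126676432), was at 22.4, 18.8 and 19.4 CPM in miR-206 libraries and at 167, 293 and 267 CPM in controls. In both genes all miR-206 libraries were below all controls, and for Sult1a1 the gap was wider.

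Sult1a1 fell in both fits (-4.65, SE 0.55, adjusted p = 0.000297, and -1.71, SE 0.26, adjusted p = 0.00511 after correction), and its corrected fall held with each library left out. Sult2a8 fell with the counts as deposited (-2.72, SE 0.56, adjusted p = 0.00300) and had 0.35 (SE 0.30, adjusted p = 0.382) after correction. For each Sult2a8 count there were 0.298, 0.286 and 0.266 Sult1a1 counts in miR-206 libraries, against 1.49, 0.976 and 1.05 in controls. Sult1a1 accordingly took 11.7%, 13.4% and 12.6% of SULT counts in miR-206 libraries and 46.4%, 38.8% and 41.5% in controls. Sult2a8 took 39.3%, 46.7% and 47.3% in miR-206 libraries and 31.1%, 39.7% and 39.5% in controls, with overlap.

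Sult1d1, which sulfates catecholamines in mice, was at 7.70, 7.90 and 6.81 CPM in miR-206 libraries and at 27.1, 118 and 84.1 CPM in controls. It fell with the counts as deposited (-4.45, SE 0.66, adjusted p = 0.000566). It lay at 3.08 times the background in miR-206 libraries and 229 times in controls, and its corrected value was -1.78 (SE 0.44). Sult1c2 (-2.32, adjusted p = 0.000862) and Sult1b1 (-2.22, adjusted p = 0.00343), an enzyme for thyroid hormones and the holder of the seed match shown above, also fell with the counts as deposited. Their control levels were low, at 9.71 to 28.1 CPM for Sult1c2 and 5.91 to 14.5 CPM for Sult1b1. Sult1c2 had -0.14 (adjusted p = 0.874) after correction. The CPM of Sult1b1 overlapped between the groups, and its fall did not pass with library size alone (-1.11, adjusted p = 0.0676). Sult1b1 lay at 1.73 times the background in miR-206 libraries and 27.0 times in controls. Averaged over the 6 libraries it was under 10 times the background, and so it was not in the corrected fit.

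Sult5a1, an orphan sulfotransferase whose substrates are not well known, was at 23.8, 9.92 and 15.7 CPM in miR-206 libraries and at 4.35, 13.1 and 11.4 CPM in controls, with overlap (-0.41, adjusted p = 0.447). Its share of SULT counts was 12.5%, 7.04% and 10.2% in miR-206 libraries and 1.21%, 1.73% and 1.78% in controls. Sult2a7 (0.58, adjusted p = 0.411) and Sult4a1 (1.23, adjusted p = 0.0962), a brain sulfotransferase, had 2.43 to 4.54 CPM in miR-206 libraries and 0.426 to 2.23 CPM in controls. In miR-206 libraries these 3 genes lay at 3.71, 3.18 and 1.51 times the background. Of the 21 SULT genes 8 had all 3 miR-206 libraries above all 3 controls in CPM, and 4 of these were among the 14 tested SULT genes, beside 52.6% of all tested genes.

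**Figure D4:**
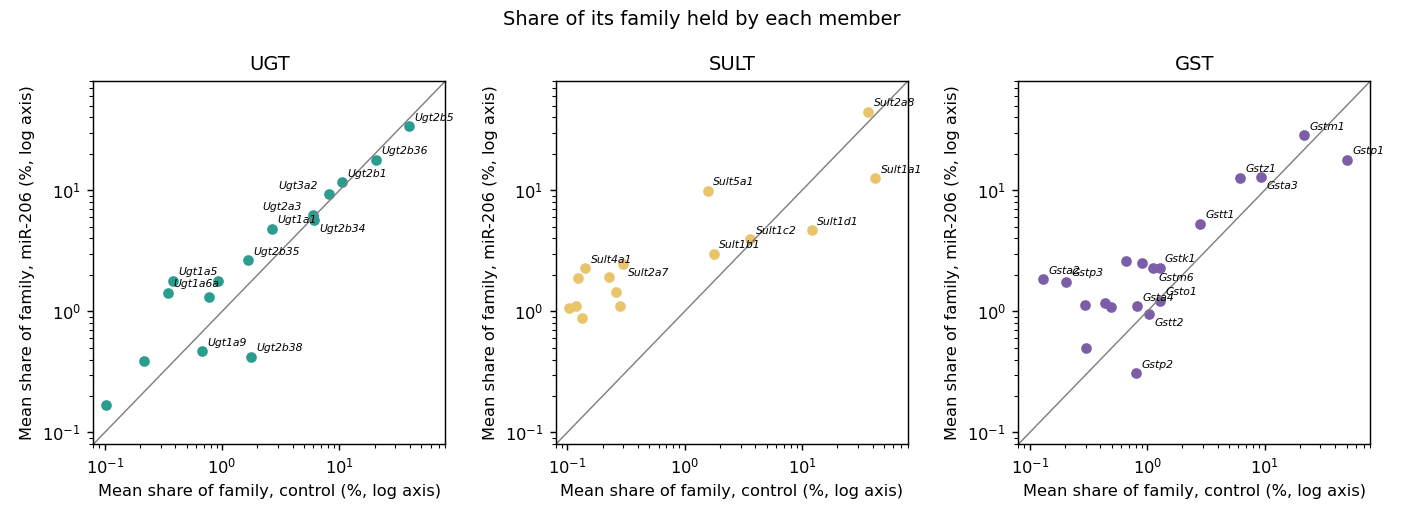
Mean share of its family's counts held by each member, miR-206 against control, on log axes, for members with a mean control share of at least 0.1%. Gstp1, Sult1a1, Sult1d1 and Ugt2b38 lie below the line of equal shares, and the low SULT genes, many of them near background, lie above it.

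UGT genes of the 2b subfamily, which glucuronidate steroids and bile acids, made up most of the UGT counts in both groups. Ugt2b5, the highest UGT gene (chr5:87124960-87140318), was at 2302, 669 and 1185 CPM in miR-206 libraries and at 1683, 1432 and 1370 CPM in controls. Ugt2b36 was at 1235, 351 and 624 CPM in miR-206 libraries and at 728, 828 and 746 CPM in controls. In both genes miR-206 library 1 was the highest and library 2 the lowest of the 6, which are also the libraries with the lowest and highest mitochondrial share among the miR-206 libraries.

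With the counts as deposited neither passed the test (Ugt2b5 -1.26, SE 0.52, adjusted p = 0.0597, and Ugt2b36 -1.23, SE 0.51, adjusted p = 0.0601). After correction both rose (1.61, SE 0.45, adjusted p = 0.0279, and 1.71, SE 0.40, adjusted p = 0.0171), but not with every library left out. Ugt2b1, Ugt3a2, Ugt2a3, Ugt2b34 and Ugt2b35 had -0.42 to -1.15 with the counts as deposited, none of them past the test, and all of them rose after correction, by 1.78 to 2.43. In all, 11 of the 13 UGT rises after correction held with each library left out, and 12 held with that fit scaled on hepatocyte identity genes and by library size alone. The 7 genes named here lay at 30.0 to 728 times the background in miR-206 libraries, so that subtraction takes little from them. With no subtraction, and with genes averaging at least 100 counts, Ugt2b5 had 0.50 and Ugt2b36 0.58.

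Ugt2b5, Ugt2b36 and Ugt2b1 led the family in this order in all 6 libraries, the first pair with smaller shares in every miR-206 library. Ugt2b5 took 33.8%, 33.6% and 34.2% of UGT counts in miR-206 libraries and 42.8%, 37.5% and 38.1% in controls, and Ugt2b36 took 18.1%, 17.6% and 18.0% in miR-206 libraries and 18.5%, 21.7% and 20.7% in controls. Ugt2b1 took 10.7% to 13.1% in miR-206 libraries and 9.01% to 11.4% in controls, with overlap.

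Ugt2b38 departed from its subfamily. It was at 15.9, 11.3 and 15.9 CPM in miR-206 libraries and at 72.7, 67.8 and 59.8 CPM in controls, the one UGT gene whose miR-206 libraries were all below the controls. It fell with the counts as deposited (-3.24, SE 0.38, adjusted p = 0.000286), and had -0.54 (adjusted p = 0.243) after correction while 6 of the 7 Ugt2b genes rose. Against Ugt2b5 its ratio was 0.00689, 0.0169 and 0.0134 in miR-206 libraries and 0.0432, 0.0474 and 0.0436 in controls. Close sequence among the Ugt2b genes could split reads between them in the authors' counting.

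The Ugt1a genes are alternative first exons joined to a shared set of constant exons. In the annotation each of the 9 shares 50.3% to 82.7% of its exonic bases with other genes, so the division of counts among them is uncertain. Ugt1a1, the bilirubin-conjugating enzyme (chr1:88211959-88218997), was at 344, 92.7 and 163 CPM in miR-206 libraries and at 133, 76.2 and 93.4 CPM in controls, with overlap. With the counts as deposited its value was -0.14 (SE 0.43, adjusted p = 0.783), and it rose after correction (2.64, SE 0.52, adjusted p = 0.00993). Its share of UGT counts was higher in every miR-206 library, at 5.05%, 4.66% and 4.72%, against 3.38%, 2.00% and 2.60% in controls.

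Ugt1a5 and the planar phenol enzyme gene Ugt1a6a were the UGT genes that rose in both fits. Ugt1a6a was at 76.0, 34.2 and 50.5 CPM in miR-206 libraries and at 15.8, 11.5 and 12.3 CPM in controls (0.94, SE 0.30, adjusted p = 0.0211, and 3.78, SE 0.38, adjusted p = 0.00192 after correction). Ugt1a5 was at 144, 21.3 and 76.0 CPM in miR-206 libraries and at 19.9, 11.8 and 12.2 CPM in controls (1.30, SE 0.47, adjusted p = 0.0366, and 4.10, SE 0.65, adjusted p = 0.00584 after correction). In both genes every miR-206 library was above every control, by little for Ugt1a5 in library 2. With the counts as deposited neither rise held with each library left out, and that of Ugt1a5 did not pass with RLE size factors (1.19, adjusted p = 0.0544). Ugt1a9 fell with the counts as deposited (-1.65, SE 0.35, adjusted p = 0.00324), where its CPM overlapped (10.3 to 29.6 in miR-206 libraries and 23.7 to 26.3 in controls), and had 1.10 (adjusted p = 0.0594) after correction.

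Genes that supply or follow the conjugating reactions were counted in the same fits. The list of UDP-glucuronic acid supply also holds Gusb, Ugcg and Slc35a3, which do not make that donor. With the counts as deposited, 6 of 7 genes of that list fell. Of PAPS supply and sulfate release 8 of 9 fell and 1 rose. Of glutathione supply and recycling 12 of 15 fell and 1 rose. Of all tested genes 29.6% fell and 25.8% rose in that fit. After correction 2 of 5 rose, 1 of 6 rose and 1 fell, and 1 of 11 rose and 3 fell in the same order of lists, beside 19.2% of all genes in that fit that rose and 15.7% that fell. Ugdh, which makes UDP-glucuronic acid, fell with the counts as deposited (-1.54, adjusted p = 0.0311) and rose after correction (1.43, SE 0.33, adjusted p = 0.0161), as did Gusb, the glucuronidase that reverses the reaction (-1.46 and 1.37). Ugp2, which makes UDP-glucose, had -3.24 and, after correction, -0.46 (adjusted p = 0.202), and the nucleotide sugar transporter genes Slc35d1 and Slc35d2 had -2.42 and -1.72, and -0.16 and 0.73 without passing after correction.

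Suox, which oxidises sulfite to sulfate, was counted at 41, 28 and 38 in miR-206 libraries and at 179, 1000 and 843 in controls, and fell with the counts as deposited (-3.87), with -1.27 after correction at 2.95 times the background in miR-206 libraries. The PAPS transporter gene Slc35b2 and the phosphatase gene Bpnt1 fell with the counts as deposited (-2.30 and -2.33) and had 0.45 and 0.36 after correction. In glutathione supply, Oplah, the 5-oxoprolinase, fell with the counts as deposited (-4.32), as did Cbs, which starts the path from homocysteine to cysteine (-3.65). Their corrected values were -2.17 and -1.10, and like Suox they passed that filter through the controls alone, at 1.90 and 2.87 times the background in miR-206 libraries. Chac2, which degrades glutathione, fell with the counts as deposited (-2.94) and had -0.46 (adjusted p = 0.509) after correction. Gsr, the glutathione reductase, picked after its values were seen, fell with the counts as deposited (-1.50) and rose after correction (1.44, SE 0.25, adjusted p = 0.00712).

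Of the microsomal glutathione transferases and other conjugating enzymes, 10 of 13 fell and 2 rose with the counts as deposited, and 2 of 10 fell and 1 rose after correction, beside 29.6% and 25.8% of all genes as deposited and 15.7% and 19.2% after correction. Nnmt, the nicotinamide methyltransferase, was counted at 50, 46 and 70 in miR-206 libraries and at 760, 2255 and 1919 in controls and fell with the counts as deposited (-4.53, adjusted p = 0.000281), with -1.69 after correction at 7.25 times the background in miR-206 libraries. Baat and Glyat, which conjugate bile acids and acyl groups with amino acids, fell with the counts as deposited (-3.68 and -3.54) and had -0.86 and -0.70 after correction without passing. All 12 genes of a list of regulators, which also holds the P450 electron donor Por, fell with the counts as deposited, among them Nfe2l2 (-3.04) and the bile acid receptor gene Nr1h4 (-3.29). After correction 2 of 9 fell, Por (-1.46) and Hnf4a (-1.48, at 4.26 times the background in miR-206 libraries), and Nfe2l2 (-0.76, adjusted p = 0.106) and Nr1h4 (-0.45, adjusted p = 0.171) did not pass. Of the genes that export conjugates 5 of 6 fell with the counts as deposited and none of 4 passed after correction. Abcc2, the pump of the bile canaliculus, had -2.50 and, after correction, 0.33, Abcc3 had -2.57 and 0.048, and Abcc6 had -2.93 and -0.21.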

How the data were processed

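RNA of 6 libraries of sorted hepatocytes was analysed. The authors deposited raw counts per Ensembl gene, as whole numbers without normalisation. Builds GRCm38 and mm10 are named in the submitters' processing notes. Aligner, counter, annotation and strandedness: not given in the sources used here.

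In edgeR 4.0.16, genes passing filterByExpr (minimum count 10) received TMM factors and a robust quasi-likelihood fit with group as its only term, with Benjamini-Hochberg adjustment over all genes tested and a threshold of 0.05. CPM use all counts of a library. Background per library came from 1700 olfactory and vomeronasal receptor genes (5499 exonic kb). Alternatives were other scalings, DESeq2 1.42.0, other filters, background correction, a replicate block and leaving out each library. SEs do not include background error. Other software was limma 3.58.1 and R 4.3.3, with matplotlib 3.10.9, pandas 2.3.3 and numpy 2.4.6 in Python 3.11.15, and data.table in version 1.17.8. The fit was tested on simulated data.

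Named members are, per family, the 8 highest by mean CPM and, of the other called members with at least 5 CPM, up to 3 rises and 3 falls, with the 3 of smallest p in each related list. A gene that this rule names among the regulators is not reported here. Further genes named were chosen after their values were seen. The members and lists were chosen with earlier results of these data known.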

Additional observations from a re-analysis of the deposited data

How the results depend on the processing

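Beside 24 falls and 3 rises among members with the counts as deposited, hepatocyte identity scaling gave 5 falls and 23 rises, background correction 5 and 15, that fit scaled on hepatocyte identity genes 5 and 14, and by library size alone, chosen after seeing the data, 11 and 13. Of all genes, in the same order, 29.6% fell and 25.8% rose, then 1.54% and 66.7%, 15.7% and 19.2%, and 10.1% and 11.3%. In the last fit 1322 of 4224 genes fell and 237 rose. Rises numbered 6 with upper-quartile factors, 6 with library size alone, 5 with nuclear genes only, 8 with a mean of at least 100 counts and 1 with no filter. Over all genes, in the same order, 10629 of 24382, 11642 of 24382, 6063 of 25123, 1882 of 6724 and 5536 of 44701 rose. With 1 library left out there were 24 to 35 falls and 0 to 8 rises, and after correction, also added after seeing the data, 2 to 5 falls (4 without control replicate 2) and 13 to 17 rises. Of the 25524 to 27853 genes in the first of these sets of fits 6202 to 8858 fell and 1916 to 10674 rose. Of the 3182 to 5026 genes in the second 163 to 835 fell and 283 to 937 rose. The UGT median minus the GST median stayed between 2.10 and 2.59 in all 24 alternatives, of which those that change only the scale can hardly move it. With the counts as deposited, RLE size factors, DESeq2, the replicate block and the fits with a library left out reversed none of the 49 named genes.

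The deviations of same-numbered libraries from their group means had correlations of 0.014, 0.026 and -0.0062, against -0.023 to 0.011 for differently numbered ones. With 3 libraries in each group, these values cannot decide whether same-numbered libraries shared a mouse. The labels do not say so either, and the numbers are not taken to pair them. The replicate block gave 24 falls and 2 rises among members, and Ugt1a5 did not pass with it (1.11, adjusted p = 0.0555).

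Signs turned as follows, on the log2 scale, and the cause was not tested. After background correction the values were Ugt2b5 1.61, Ugt2b36 1.71, Ugt2b1 2.02, Ugt3a2 2.08, Ugt2a3 1.98, Ugt2b34 1.78, Ugt1a1 2.64, Ugt2b35 2.43, Ugt1a9 1.10, Sult2a8 0.35, Gstz1 0.024, Slc35d2 0.73, Bpnt1 0.36, Slc35b2 0.45, Abcc3 0.048 and Abcc2 0.33. With that fit scaled on hepatocyte identity genes they were Ugt2b5 1.40, Ugt2b36 1.52, Ugt2b1 1.87, Ugt3a2 1.86, Ugt2a3 1.81, Ugt2b34 1.61, Ugt1a1 2.39, Ugt2b35 2.24, Ugt1a9 0.96, Sult2a8 0.35, Slc35d2 0.60, Bpnt1 0.35, Slc35b2 0.32 and Abcc2 0.24. With hepatocyte identity scaling alone they were Ugt2b5 1.32, Ugt2b36 1.44, Ugt2b1 1.79, Ugt3a2 1.78, Ugt2a3 1.73, Ugt2b34 1.54, Ugt1a1 2.32, Ugt2b35 2.20, Ugt1a9 1.04, Sult2a8 0.32, Sult5a1 2.59, Sult1b1 0.80, Slc35d2 1.06, Slc35d1 0.58, Bpnt1 0.60, Slc35b2 0.55, Abcc3 0.12, Abcc6 0.058 and Abcc2 0.40. Library size alone gave Ugt2b1 0.23, Ugt3a2 0.37, Ugt2a3 0.22, Ugt2b34 0.046, Ugt1a1 1.01, Ugt2b35 0.71 and Sult5a1 0.78. A mean of at least 100 counts gave Ugt2b5 0.50, Ugt2b36 0.58, Ugt2b1 0.89, Ugt3a2 0.96, Ugt2a3 0.85, Ugt2b34 0.66, Ugt1a1 1.56, Ugt2b35 1.35, Ugt1a9 0.14, Sult5a1 1.53 and Slc35d2 0.13. Upper-quartile factors gave Ugt3a2 0.042, Ugt1a1 0.68, Ugt2b35 0.43 and Sult5a1 0.54.

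The low depth of the miR-206 libraries limits the members with few counts. For a gene at 0 the upper limit of 3 counts is 0.524 to 0.722 CPM in miR-206 libraries and 0.197 to 0.335 CPM in controls, for counting error only.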
